A study of Mus musculus with 2 samples.

Results

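The 10 genes S100a4, S100a6, S100a10, S100a11, Anxa2, Lgals1, Vim, Lmna, Ahnak and Ahnak2 were followed in B cells of the mouse heart, out of 31053 genes counted. They were listed from earlier results of the same data, by their level in each of the 2 libraries and in cells with and without markers often used for B1 cells, so these comparisons describe the genes and are not evidence for the choice. Myocardial B cells were sorted as live cells from the hearts of wild-type C57BL6/J mice. The neonatal library came from 6 mice of 2 weeks (15 days in the sample title), pooled male and female, and the adult library from 6 male mice of 8 weeks. No group carried a transgene or a treatment. With 1 droplet library per age there was no replicate, and age, library and pool of mice cannot be told apart. Sex also differed between the libraries. An alternative setting below kept only the male cells of the neonatal library, and the part of sex was not tested. Intervals below are exact at 95% and cover counting error only, and no p-value is given.

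Most S100 genes encode small calcium-binding proteins, and most of these act as dimers that bind other proteins when calcium is present. Annexin A2, encoded by Anxa2, binds membrane phospholipids in the presence of calcium and forms a complex with the S100a10 protein, and the large scaffold protein encoded by Ahnak attaches to that complex beneath the plasma membrane. Lgals1 encodes galectin-1, a lectin that binds galactose-containing sugars, whereas Vim and Lmna encode intermediate filament proteins of the cytoplasm and of the nuclear lamina. B1 cells are innate-like B cells that arise early in life and make natural IgM, and conventional follicular B cells carry CD21 (Cr2), CD23 (Fcer2a) and IgD.

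The cells were droplets with at least 2000 UMIs of genes (unique molecular identifiers, each marking 1 captured mRNA molecule), at most 10% mitochondrial UMIs and a UMI of Cd79a, a chain of the B cell receptor complex. This gave 2077 neonatal cells with 16403180 UMIs and 3611 adult cells with 34623240 UMIs, at a median of 6000 and 6131 UMIs per cell. Cells with a UMI of at least 2 of the 4 genes Bhlhe41, Zbtb32, Ctla4 and Cd9 are called marker cells, and all remaining cells are called other cells. There were 172 marker cells in the neonatal library (8.28%, 95% Clopper-Pearson interval 7.13 to 9.55) and 517 in the adult library (14.3%, 13.2 to 15.5). Deeper cells pass such a rule more often: marker cells had a median of 16312 and 16860 UMIs, against 5824 and 5252 in other cells. The class was therefore also set on cells thinned at random to 2000 UMIs each, which left 21 and 64 marker cells.

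Levels are CPM, the UMIs of a gene per 1000000 UMIs of all genes in the class. Both classes carried B cell genes. Ms4a1 (CD20) was at 1193 and 1281 CPM in neonatal and adult marker cells, against 1389 and 1089 CPM in other cells. Cd79b, the partner chain of Cd79a, was at 1505 and 1226 CPM in neonatal and adult marker cells, against 1879 and 1282 CPM in other cells. Genes of B1 cells that were not part of the definition were also higher in marker cells. Spn (CD43) was at 22.6 and 18.8 CPM in neonatal and adult marker cells, against 3.18 and 4.44 CPM in other cells, and Itgam (CD11b) was at 11.1 and 16.4 CPM against 4.73 and 4.44 CPM. Cd5 was at 13.7 and 6.86 CPM against 2.79 and 0.697 CPM. At 2000 UMIs per cell, each of the 3 had a UMI in at most 3.68% of marker cells of either library.

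The libraries shared barcodes: 61 neonatal and 45 adult cells had a barcode with at least 500 UMIs in the other library as well. Such cells were deep, with medians of 30537 and 58990 UMIs in their own library against 656 and 612 UMIs in the other. They made up 45 of the 172 neonatal and 38 of the 517 adult marker cells. In the neonatal library they held 12.6% of all UMIs but 50% of the S100a4, 46.0% of the Anxa2, 43.1% of the Ahnak2, 39.2% of the Lgals1 and 38.3% of the S100a6 UMIs. In the adult library they held 8.05% of all UMIs and between 6.40% (S100a11) and 12.9% (Ahnak) of those of each gene. The median ratios between the classes, and the ratios between the ages for the genes that moved most, are also given without these cells.

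All 10 genes lie on autosomes, and S100a4, S100a6, S100a11, S100a10 and Lmna share chromosome 3 in the GRCm38 annotation of GENCODE (release M21). S100a4 (chr3:90603771-90606045) ends 6837 bases before S100a6 (chr3:90612882-90624181), and S100a11 (chr3:93520488-93526287) ends 28793 bases before S100a10 (chr3:93555080-93564643), all on the plus strand. Lmna lies on the minus strand (chr3:88480147-88509956). The others are Vim (chr2:13573927-13582826), Anxa2 (chr9:69453620-69491795), Ahnak2 (chr12:112772194-112802657, minus strand), Lgals1 (chr15:78926725-78930465) and Ahnak (chr19:8989284-9076914), all protein coding. Promoter sequence of RefSeq (GRCm38.p6) was matched for 8 of the 10 genes and not for S100a10 and Lgals1. The 250 bases before the start site are printed 5′ to 3′ for 4 genes on the plus strand: S100a4, S100a6, Anxa2 and S100a11. The UMIs of S100a4 and S100a6 had the highest correlation of any pair of the 10 genes over all cells of each library. S100a11 differed least between marker cells and other cells. Capitals mark matches, on either strand, to the AP-1 motif TGANTCA, the CACCC box, the GC box GGGCGG and the TATA box TATAAA.
S100a4, chr3:90603520-90603769: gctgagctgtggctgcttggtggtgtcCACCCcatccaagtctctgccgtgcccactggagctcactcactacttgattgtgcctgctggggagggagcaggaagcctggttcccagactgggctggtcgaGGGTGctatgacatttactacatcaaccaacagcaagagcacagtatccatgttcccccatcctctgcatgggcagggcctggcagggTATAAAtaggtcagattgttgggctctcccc
S100a6, chr3:90612644-90612893: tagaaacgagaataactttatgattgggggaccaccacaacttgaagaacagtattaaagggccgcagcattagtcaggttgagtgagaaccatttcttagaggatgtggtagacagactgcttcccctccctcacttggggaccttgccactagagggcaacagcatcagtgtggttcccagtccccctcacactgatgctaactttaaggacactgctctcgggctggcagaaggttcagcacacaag
Anxa2, chr9:69453433-69453682: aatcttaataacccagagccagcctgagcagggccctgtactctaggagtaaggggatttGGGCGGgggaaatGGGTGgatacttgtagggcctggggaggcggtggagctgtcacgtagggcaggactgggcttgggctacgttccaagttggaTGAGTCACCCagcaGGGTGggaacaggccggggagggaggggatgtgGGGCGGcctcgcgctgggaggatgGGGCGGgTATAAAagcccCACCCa
S100a11, chr3:93520246-93520495: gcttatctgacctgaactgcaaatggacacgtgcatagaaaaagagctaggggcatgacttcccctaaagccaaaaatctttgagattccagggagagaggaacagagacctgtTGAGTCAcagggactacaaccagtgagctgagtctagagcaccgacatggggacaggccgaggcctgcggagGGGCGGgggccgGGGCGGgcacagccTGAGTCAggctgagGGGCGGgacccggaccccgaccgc
S100a4 held a TATA box and 2 CACCC matches, and the window of S100a6 held none of the 4 motifs. Anxa2 held all 4 motifs, its AP-1 match overlapping a CACCC box, and S100a11 held 2 AP-1 matches and 3 GC boxes. Among the 8 genes, 2 held an AP-1 match, 6 a CACCC box, 4 a GC box and 3 a TATA box. Of 27025 promoters of the same length, 6.87%, 51.3%, 32.9% and 12.97% held them. A match describes the letters only and shows no binding.

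S100a6 differed most in level between the classes among the S100 genes of the neonatal library. Its level was 2564 CPM (2512 to 2618) in neonatal marker cells and 207 CPM (199 to 215) in neonatal other cells, a log2 ratio of 3.63 (3.57 to 3.70). In the adult library it was 1240 CPM (1220 to 1261) in marker cells and 337 CPM (330 to 345) in other cells, a log2 ratio of 1.88 (1.84 to 1.92). The neonatal classes thus lay further apart: their marker cells were higher, and their other cells lower, than those of the adult library. At 2000 UMIs per cell, S100a6 had a UMI in 67.4% of neonatal (59.9 to 74.4) and 66.9% of adult marker cells (62.7 to 71.0), so the share of positive marker cells was nearly equal while the summed level was not. Among other cells the share was 7.77% (6.61 to 9.06) at 2 weeks and 17.6% (16.3 to 19.0) at 8 weeks. A single neonatal cell held 583 S100a6 UMIs, 5.01% of the total of that library.

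S100a4 encodes a protein known for binding nonmuscle myosin in motile cells. It belongs to a list that the study drew from CD11b+ cells of these same libraries, as do Cd9 and Ctla4, so its level in marker cells is not independent of that list. It was at 239 CPM (223 to 256) in neonatal and 95.3 CPM (89.8 to 101.1) in adult marker cells, and at 23.3 CPM (20.7 to 26.0) and 24.6 CPM (22.6 to 26.7) in other cells. The log2 ratios of the classes were 3.36 (3.17 to 3.56) and 1.95 (1.81 to 2.10). A UMI was found in 39.5% of neonatal marker cells and 2.41% of other cells, and in 43.9% and 5.43% of the adult ones. At 2000 UMIs per cell the shares were 16.9% and 0.840% in the neonatal and 14.1% and 1.65% in the adult library. Of the thinned cells with an S100a4 UMI, 42 of 45 neonatal and 105 of 124 adult cells also had S100a6, against 10.9% and 22.5% of the cells without S100a4. Vim, present in far more cells, was beside S100a4 in 43 and 87 of these cells, against 65.2% and 46.0% of the cells without S100a4.

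S100a10 and S100a11 were widespread in both classes, and their ratios between the classes were smaller. S100a10, the partner of annexin A2, was at 1010 CPM (977 to 1043) in neonatal marker cells and 463 CPM (451 to 475) in other cells. In adult cells it was at 544 CPM (531 to 557) and 385 CPM (377 to 393). The log2 ratios were 1.12 (1.06 to 1.19) and 0.50 (0.45 to 0.55). S100a11, which also binds annexins, was at 419 CPM (398 to 441) and 257 CPM (249 to 266) in the neonatal classes, and at 292 CPM (282 to 302) and 216 CPM (210 to 222) in the adult ones, with the smallest log2 ratios of the 10 genes, 0.70 and 0.43. S100a10 had a UMI in 54.6% and 50.5% of thinned other cells, and S100a11 in 38.6% and 32.5%. Both transcripts were thus common among other cells as well.

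Anxa2 differed between the classes by as much as S100a6, and by more than S100a10, the gene of its partner protein. Its level was 189 CPM (174 to 204) in neonatal marker cells and 12.3 CPM (10.4 to 14.3) in other cells, and 110 CPM (104 to 116) and 30.4 CPM (28.2 to 32.7) in adult ones. The log2 ratios of the classes were 3.94 (3.69 to 4.20) and 1.85 (1.72 to 1.99). Lgals1 was at 403 CPM (382 to 425) and 57.1 CPM (53.1 to 61.4) in neonatal marker and other cells, and at 212 CPM (203 to 220) and 68.7 CPM (65.4 to 72.2) in adult ones. Its log2 ratios were 2.82 (2.69 to 2.95) and 1.62 (1.53 to 1.72). For both genes the neonatal library held the higher marker cells and the lower other cells.

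Vim and Lmna had their higher level in the neonatal library in both classes. Vim was at 2264 CPM (2214 to 2314) in neonatal marker cells and 930 CPM (913 to 946) in other cells, and at 954 CPM (936 to 972) and 495 CPM (486 to 504) in adult ones, so that adult marker cells were near the level of neonatal other cells. Its log2 ratios of the classes were 1.28 (1.24 to 1.33) and 0.95 (0.91 to 0.98). Lmna, which encodes lamins A and C, was at 370.2 CPM (350.3 to 391) and 57.7 CPM (53.6 to 62.0) in the neonatal classes and at 77.1 CPM (72.1 to 82.3) and 24.3 CPM (22.3 to 26.4) in the adult ones. The log2 ratios were 2.68 (2.55 to 2.81) and 1.67 (1.51 to 1.82). Lmna thus separated the classes more sharply than Vim in both libraries.

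Ahnak was at 729 CPM (701 to 758) in neonatal marker cells and 260 CPM (252 to 269) in other cells, and at 269 CPM (260 to 279) and 86.6 CPM (82.9 to 90.5) in adult ones. Its log2 ratios, 1.49 (1.41 to 1.56) and 1.64 (1.55 to 1.72), made it the only gene of the 10 with a larger class difference in the adult library, with cells and classes as defined above. S100a4, S100a11, Vim and Ahnak2 each had the larger adult ratio under some other setting. In thinned cells S100a11 was at 0.67 and 0.71, and with at least 1 class gene Vim was at 0.97 and 1.13. For Ahnak the order turned with the class set on thinned counts, at 2.16 and 1.98. Ahnak2, which encodes a related giant protein, rested on few UMIs. It was at 31.4 CPM (25.8 to 37.9) in neonatal marker cells from 110 UMIs and at 1.01 CPM (0.537 to 1.72) in other cells from 13 UMIs, and at 25.9 CPM (23.1 to 29.0) and 2.00 CPM (1.47 to 2.67) in adult ones. Its log2 ratios were the largest of the 10 genes, 4.96 (4.13 to 5.92) and 3.69 (3.24 to 4.17), with the widest intervals.

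**Figure D1:**
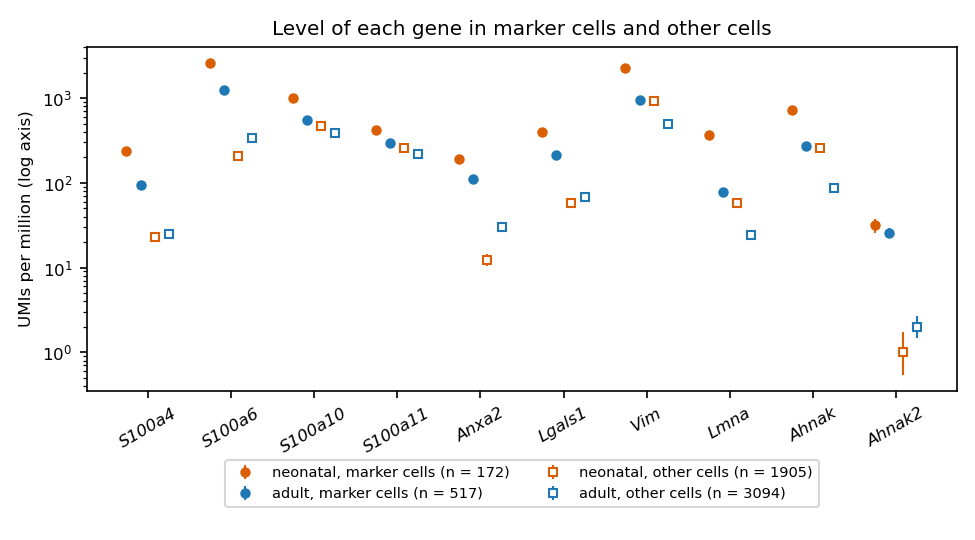
Level of each of the 10 genes in CPM on a log axis, in marker cells (filled circles) and other cells (open squares) of the neonatal (orange) and adult (blue) libraries; bars are exact 95% Poisson intervals. Neonatal marker cells have the highest point for every gene, and the classes lie closest for S100a10 and S100a11. The UMIs were counted at the 3′ end and not per length, so heights are compared within a gene only.

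Over the 10 genes, 9 were at least 2-fold higher in neonatal marker cells than in other cells, where 4.16% of the 9236 genes with at least 50 UMIs were, and none was 2-fold lower, where 3.45% were. In the adult library 7 were, where 3.41% of 10139 genes were, and none was 2-fold lower, where 1.48% were. The genes were chosen by this contrast, so nothing is read from the counts. Their log2 ratios had a median of 2.75 at 2 weeks and 1.65 at 8 weeks, against −0.08 and −0.05 over all genes. Because marker cells were deeper, the ratio was also taken among cells of 8000 to 20000 UMIs, 104 and 306 marker cells against 356 and 767 other cells. The medians were then 1.60 and 1.35, with 8 and 7 genes at least 2-fold higher. The share of all genes past 2-fold was not taken for these cells. In that range the neonatal ratio of S100a4 was 1.31 and that of S100a6 was 2.24, so the neonatal and adult ratios of S100a4 (1.33 in the adult library) no longer stood apart. With the class set on thinned counts the medians were 2.58 and 2.16. Without the shared barcodes they were 2.80 and 1.74.

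**Figure D2:**
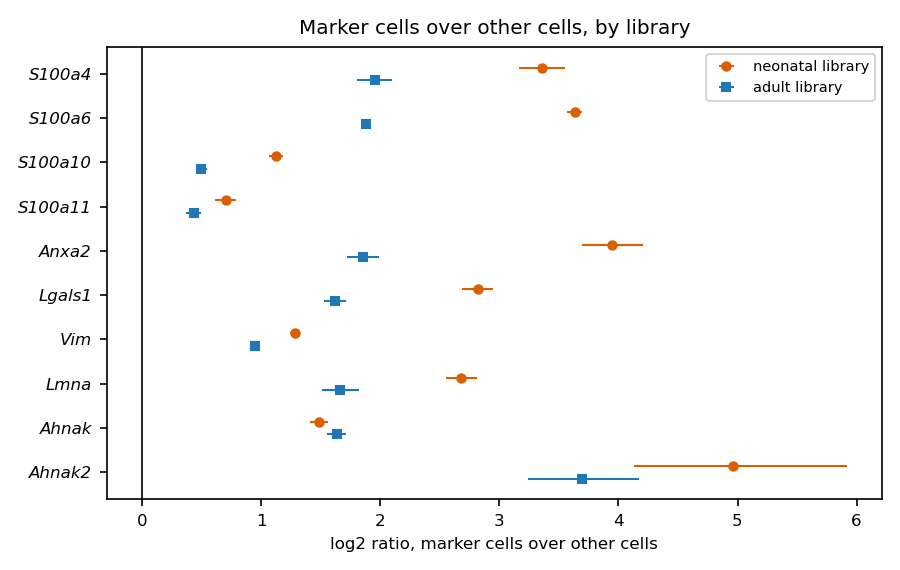
Log2 ratio of marker cells over other cells for each of the 10 genes in the neonatal (orange circles) and adult (blue squares) libraries, with exact 95% intervals; the vertical line marks no difference. All points lie right of it, from 0.70 to 4.96 in the neonatal and from 0.43 to 3.69 in the adult library, and only Ahnak has its adult point further right.

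The UMIs of several genes came from few cells. Marker cells held 21.3% of all UMIs at 2 weeks and 33.7% at 8 weeks. They held 80.7% and 64.7% of the Anxa2 UMIs, 77.1% and 65.1% of the S100a6 UMIs, 73.6% and 66.3% of the S100a4 UMIs and 89.4% and 86.8% of the Ahnak2 UMIs. For S100a11 the shares were the lowest of these genes, at 30.6% and 40.7%. Free RNA, taken from near-empty droplets, would account for between 0.240% (S100a4, neonatal) and 1.23% (Lmna, adult) of the UMIs of a gene.

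The number of the 10 genes with a UMI in the same cell was compared at 2000 UMIs per cell. Neonatal marker cells held 4.73 of the genes on average and neonatal other cells 2.11. Adult marker cells held 3.59 and adult other cells 1.70. At least 5 genes were found in 97 of 172 neonatal marker cells (56.4%, 48.6 to 63.9) and 143 of 517 adult marker cells (27.7%, 23.8 to 31.7), against 4.09% (3.25 to 5.08) and 2.97% (2.40 to 3.63) of other cells. Since other cells are far more numerous, they still made up 78 of the 175 neonatal cells and 92 of the 235 adult cells with at least 5 of the genes. The 4 class genes therefore did not mark all cells rich in these transcripts, at the depth at which they were read.

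**Figure D3:**
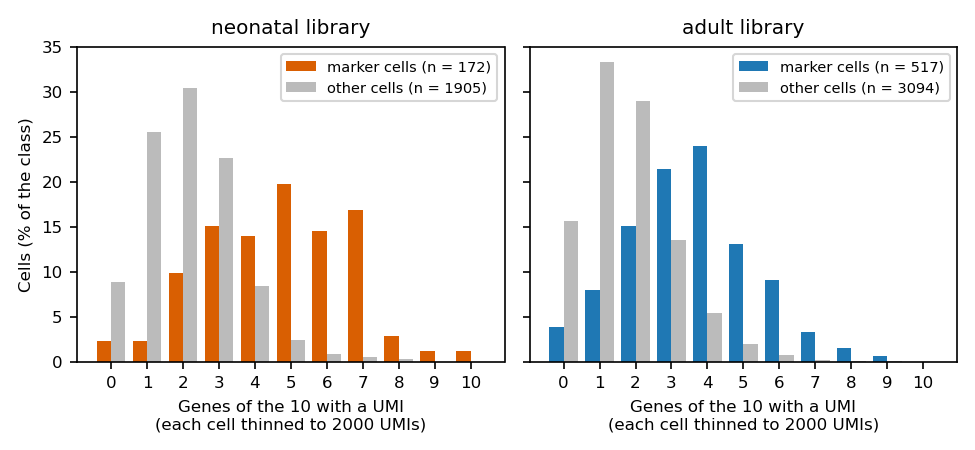
Share of cells, in percent of the class, by how many of the 10 genes had a UMI after each cell was thinned to 2000 UMIs, for marker cells (colored bars) and other cells (gray bars) of the neonatal library at left and the adult library at right. The median marker cell holds 5 of the genes if neonatal and 4 if adult, and the median other cell 2 at both ages.

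Other cells rich in the 10 genes shared features that the choice of genes did not use. Among neonatal other cells with at least 5 of the genes, Ighd (IgD) was at 299 CPM, Fcer2a (CD23) at 73.9 CPM and Itgb1 (integrin β1) at 126 CPM. In neonatal other cells with none or 1 of the genes, the same genes were at 594, 261 and 30.1 CPM. In the adult library Ighd was at 455 against 967 CPM, Fcer2a at 172 against 378 CPM and Itgb1 at 180 against 27.6 CPM. Cd44, the hyaluronan receptor, was at 184 against 48.1 CPM and at 137 against 39.2 CPM. IgD and CD23 were thus lower, and Itgb1 and Cd44 higher, in the cells richest in S100, annexin and filament transcripts, although these cells were not in the marker class. They were deeper, with medians of 9134 and 10560 UMIs against 5632 and 4654, and 52.6% and 55.4% of them had a UMI of exactly 1 class gene, against 17.7% and 9.89% in the cells with none or 1 of the genes. UMIs of 6 macrophage genes (Csf1r, Adgre1, C1qa, C1qb, Fcgr1 and Mrc1) were in 6.41% and 6.52% of them, against 2.14% and 0.989%. Lyz2, a macrophage or monocyte gene outside these 6, was at 269 against 21.7 CPM in the neonatal and 0 against 4.45 CPM in the adult library. Itgam was at 29.6 against 2.17 CPM and at 16.2 against 1.31 CPM. Cr2 (CD21) was at 14.8 against 33.5 CPM and nearly equal at 128 against 135 CPM. The part of cells with macrophage transcripts in the result was not tested.

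The level also followed the number of class genes, across and beyond the limit of 2. Summed over the 10 genes, it was 1930 CPM in the 1504 neonatal cells with no class gene, 3188 CPM with 1, 6250 CPM with 2, 9880 CPM with 3 and 8913 CPM in the 26 cells with 4. In the adult library it was 1317, 2712, 3089, 4568 and 3977 CPM. The step across the limit, from 1 to 2 class genes, was large in the neonatal library and small in the adult library, where the step from 0 to 1 was larger. The cells with 1 class gene differed in make-up. Bhlhe41 was that gene in 273 of 401 neonatal and 108 of 476 adult cells, and Cd9 in 77 and 243. Bhlhe41 was at 56.3 CPM in neonatal marker cells and 29.6 CPM in other cells, against 56.5 and 5.88 CPM in adult ones. The part of this in the steps was not tested. At equal depth, S100a6 had a UMI in 5.45%, 16.5%, 55.8%, 78.3% and 80.8% of neonatal cells with 0 to 4 class genes, and in 13.03%, 42.6%, 59.4%, 73.4% and 74.7% of adult cells. Median UMIs before thinning went up with the number of class genes as well, from 5682 to 25724 and from 4824 to 30742.

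**Figure D4:**
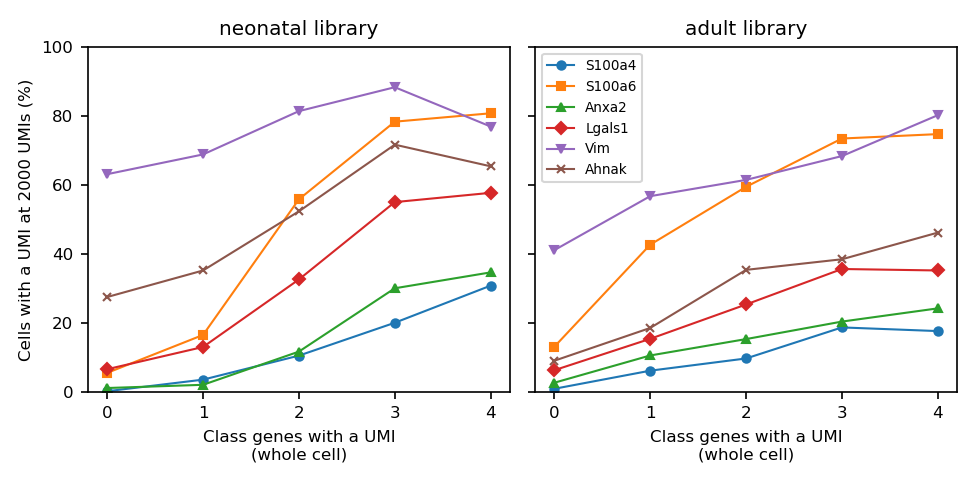
Share of cells, in percent, with a UMI of 6 of the 10 genes after thinning to 2000 UMIs, against the number of class genes with a UMI in the whole cell, for the neonatal library at left and the adult library at right. S100a6 climbs from 5.45% to 80.8% in the neonatal and from 13.03% to 74.7% in the adult library, whereas Vim starts at 63.1% and 41.1%.

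Within a library the 10 genes went together weakly from cell to cell. Over all pairs, Pearson's r of log(1 + UMIs) across thinned cells lay between 0.06 and 0.52 in the neonatal library (2077 cells, median 0.18) and between 0.05 and 0.36 in the adult library (3611 cells, median 0.14). The highest pair was S100a4 with S100a6 in both, at 0.52 and 0.36. Within neonatal marker cells alone S100a6 with Vim was higher than S100a4 with S100a6, at 0.54 against 0.46, and within adult marker cells Vim with Ahnak was, at 0.31 against 0.30. S100a6 with Lgals1 was at 0.39 and 0.33 and S100a6 with Anxa2 at 0.36 and 0.30. Anxa2 with S100a10, whose proteins form a complex, was at 0.13 and 0.10. Of the thinned cells with Anxa2, 65.6% at 2 weeks and 64.0% at 8 weeks also had S100a6, against 11.1% and 22.2% of cells without Anxa2. For S100a10 the shares were 77.0% and 64.5% with Anxa2 and 55.8% and 51.0% without. Cells of 1 library share its preparation, sparse counts limit r, and the values are descriptions.

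Among 6363 other genes seen in at least 2% of thinned cells of both libraries, those closest to the summed UMIs of the 10 genes were Crip1 (r = 0.41 at 2 weeks and 0.39 at 8 weeks), Tagln2 (0.35 and 0.25), Plac8 (0.23 and 0.34), Atf3 (0.26 and 0.24), Ccnd2 (0.22 and 0.25), Capg (0.19 and 0.21), Ly6a (0.14 and 0.26), Pdlim1 (0.18 and 0.17), Itgb1 (0.16 and 0.19) and Rassf4 (0.21 and 0.14). Mitochondrial, ribosomal and immunoglobulin genes were left out, and of the class genes Cd9 stood among them, at 0.20 in both. Tagln2, Capg, Pdlim1 and Itgb1 encode proteins that bind or anchor actin, and Crip1 a small LIM-domain protein. Tagln2, Itgb1 and Ly6a are also in lists that the study drew from these libraries. Within other cells alone Crip1 had an r of 0.28 and 0.29, Ly6a of 0.03 and 0.17, and Cd9 of 0.04 and 0.10. At the far end, Btg1, a gene of resting lymphocytes, was at −0.23 and −0.24, and Ebf1, a transcription factor of B cell identity, at −0.16 and −0.23. Within other cells they were at −0.13 and −0.15 and at −0.03 and −0.13.

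Other genes of the same families were read from fixed lists, those with at least 50 UMIs over both libraries. Of 14 other S100 genes, 5 had at least 50 UMIs. S100a1 was higher in adult marker cells at 6.34 CPM, against 1.61 CPM in other cells (log2 ratio 1.98, 1.39 to 2.59). S100a13 was at 137 and 105 CPM in marker cells and 72.7 and 72.4 CPM in other cells. S100pbp, which encodes a protein that binds S100 proteins, was at −0.37 (−0.79 to 0.02) and −0.31 (−0.60 to −0.02). S100a8 and S100a9, the calprotectin genes of neutrophils, had 111 and 295 UMIs in the neonatal library, in 6 and 9 cells, and no UMI in the adult library, which allows up to 0.0866 CPM. The neonatal log2 ratio of S100a8 was 2.22 (1.66 to 2.79), from 3 marker cells and 3 other cells. All 6 annexins with enough UMIs of 10 others were higher in marker cells in both libraries, with log2 ratios from 0.31 to 1.29 in the neonatal and from 0.10 to 0.54 in the adult library, the lowest adult interval (Anxa7) including 0. Over all genes 41.7% and 42.7% had a ratio above 0. At least 2-fold higher were Anxa5 (1.29, 1.02 to 1.56) and Anxa1 (1.03, 0.61 to 1.45), both in the neonatal library, where 4.16% of all genes were.

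Other genes of the nuclear lamina and envelope differed less between the classes than Lmna. None of the 15 other lamina and nuclear envelope genes was 2-fold higher or lower in marker cells of either library, and their median log2 ratios were 0.09 and −0.11. Of all genes 4.16% and 3.41% were 2-fold higher and 3.45% and 1.48% lower, so a count of 0 of 15 is near the background. Lmnb1 (lamin B1) was at 0.61 (0.39 to 0.83) and 0.54 (0.38 to 0.70), whereas Lbr (lamin B receptor) was at −0.56 (−0.75 to −0.37) and −0.37 (−0.48 to −0.25) and Sun2, which links the lamina to the cytoskeleton, at −0.59 (−0.88 to −0.31) and −0.54 (−0.69 to −0.40). Among 8 filament and linker genes with enough UMIs, of 17, the keratin genes Krt8 and Krt18 had the largest ratios. Krt8 had 73 UMIs in adult marker cells, spread over 40 cells, and 7 in other cells (log2 ratio 4.36, 3.24 to 5.72), and Krt18 had 37 and 7 (3.38, 2.19 to 4.79). In the neonatal library they had 25 and 5 UMIs in marker cells and 2 and 1 in other cells, and ratios of 5.53 (3.52 to 8.65) and 4.20 (1.04 to 9.77). Plec, which encodes the filament linker plectin, was at 1.15 (0.91 to 1.38) and 0.64 (0.51 to 0.78). Among the 5 galectin genes with enough UMIs, of 8, Lgals3 was at 0.06 (−0.22 to 0.33) at 2 weeks and 0.91 (0.72 to 1.10) at 8 weeks, and Lgals8 at −0.68 (−0.97 to −0.40) and −0.26 (−0.42 to −0.11).

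Adult and neonatal libraries were then set side by side. Over all cells, none of the 10 genes was at least 2-fold higher in the adult library, where 3.25% of 10693 genes were, and 2 were at least 2-fold lower, where 3.95% were. These were Lmna, at 42.1 against 124 CPM (log2 ratio −1.56, −1.66 to −1.47), and Ahnak, at 148 against 360.5 CPM (−1.28, −1.34 to −1.23). Vim was at 649 against 1214 CPM (−0.90, −0.93 to −0.88). The median of the 10 genes was −0.34, against −0.13 over all genes. Without shared barcodes it was 0.05, and S100a4, S100a6 and Lgals1 turned from −0.52, −0.15 and −0.16 to 0.30, 0.31 and 0.31, so no direction over all cells is given for these genes. Anxa2 and Ahnak2 went from 0.20 and 0.42 to 0.87 and 1.005. Lmna, Ahnak and Vim were at −1.30, −1.20 and −0.78 without them.

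Within marker cells all 10 genes had a lower point in the adult library, with a median log2 ratio of −0.99 against −0.11 over all genes. A lower point was common, since only 38.2% of all genes had a ratio above 0. Of the 10 genes, 5 were at least 2-fold lower, where 3.48% of 9127 genes were, and none was 2-fold higher, where 3.05% were. The 5 genes were Lmna (−2.26, −2.39 to −2.14), Ahnak (−1.44, −1.51 to −1.36), S100a4 (−1.33, −1.46 to −1.19), Vim (−1.25, −1.29 to −1.21) and S100a6 (−1.05, −1.09 to −1.01). Lgals1, S100a10, Anxa2 and S100a11 lay between −0.93 and −0.52, and the interval of Ahnak2 included 0 (−0.28, −0.60 to 0.05). The deepest cells weighed on several of these values. Without the 5% of cells with most UMIs in each library, S100a4 was at 0.49 and Anxa2 at 0.03 in marker cells, and in cells with 8000 to 20000 UMIs they were at 0.14 and −0.18. S100a6 was at −0.47 and −0.52 and thus no longer 2-fold lower, Lgals1 at −0.47 and −0.64, and Ahnak2 at 0.28 and 0.33. Without shared barcodes S100a4 was at −0.88, S100a6 at −0.99, Anxa2 at −0.48 and Lgals1 at −0.64, so that 3 genes, Lmna, Ahnak and Vim, were still 2-fold lower. The share of all genes past 2-fold was not taken without these barcodes. Without the deepest 5% and in the range of 8000 to 20000 UMIs Lmna was at −2.08 and −1.95, Ahnak at −1.30 and −1.38 and Vim at −1.15 and −1.13.

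Within other cells the genes parted, at a median of −0.08 against −0.13 over all genes. Ahnak (−1.59, −1.67 to −1.51), Lmna (−1.25, −1.41 to −1.09) and Vim (−0.91, −0.95 to −0.87) were lower in the adult library, as in marker cells. Ahnak and Lmna were at least 2-fold lower, where 3.54% of 10156 genes were. S100a10 and S100a11 were at −0.27 and −0.25. Anxa2 (1.31, 1.06 to 1.57) was the only gene at least 2-fold higher, where 3.36% of genes were, and S100a6 (0.71, 0.64 to 0.77), Lgals1 (0.27, 0.14 to 0.39) and Ahnak2 (0.99, 0.08 to 2.00) were also higher, while S100a4 was at 0.08 (−0.12 to 0.29). S100a4 is given no direction here, since it ranged from −0.44 with neonatal male cells only to 1.62 with the class set at 1 class gene or more, and was at 0.63 without shared barcodes. Without shared barcodes Anxa2 was at 1.53, S100a6 at 0.86 and Ahnak2 at 1.17. Adult other cells thus had less Vim, Lmna and Ahnak and more Anxa2 than neonatal ones. They also had more S100a6, to a degree that changed with depth. Over the 18 alternative settings, Lmna, Ahnak and Vim stayed lower in the adult library in both classes. Lmna ranged from −2.32 to −1.74 in marker cells and from −1.67 to −0.83 in other cells. In other cells Anxa2 ranged from 0.91 to 1.76. S100a6 ranged from 0.27, in cells of 8000 to 20000 UMIs, to 1.49, and the part of depth in its difference was not tested.

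Among the family genes, Krt18 (1.80, 0.56 to 3.32, from 44 and 6 UMIs), Lgals3bp (1.79, 1.38 to 2.22) and Anxa4 (1.06, 0.71 to 1.43) had the highest ratios of adult over neonatal over all cells. S100a9 and S100a8, with no adult UMI, came lowest in each of the comparisons between the ages and are given no ratio. Of the genes with UMIs in both libraries, Vcl, which encodes vinculin (−0.89, −1.13 to −0.66), S100pbp (−0.63, −0.83 to −0.44) and Lgals3 (−0.54, −0.69 to −0.40) had the lowest. Within marker cells Lgals3bp was at 1.62 (0.94 to 2.39), Krt18 at 1.15 (−0.20 to 2.86) and S100a1 at 1.01 (0.09 to 2.08), against, with UMIs in both libraries, −0.67 (−0.88 to −0.45) for Anxa7, −0.60 (−1.01 to −0.18) for Sun1 and −0.58 (−1.11 to −0.02) for Syne2. Within other cells the highest were Krt18 (1.98, −0.98 to 7.47, from 7 UMIs and 1), Lgals3bp (1.69, 1.17 to 2.24) and Anxa4 (1.06, 0.63 to 1.51), and the lowest with UMIs in both libraries Vcl (−1.14, −1.43 to −0.85), Lgals3 (−0.90, −1.09 to −0.72) and S100pbp (−0.61, −0.84 to −0.38). Lmnb1, Anxa1, Anxa5, S100a9, S100a13 and Plec, given above, were chosen after their values were seen.

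**Figure D5:**
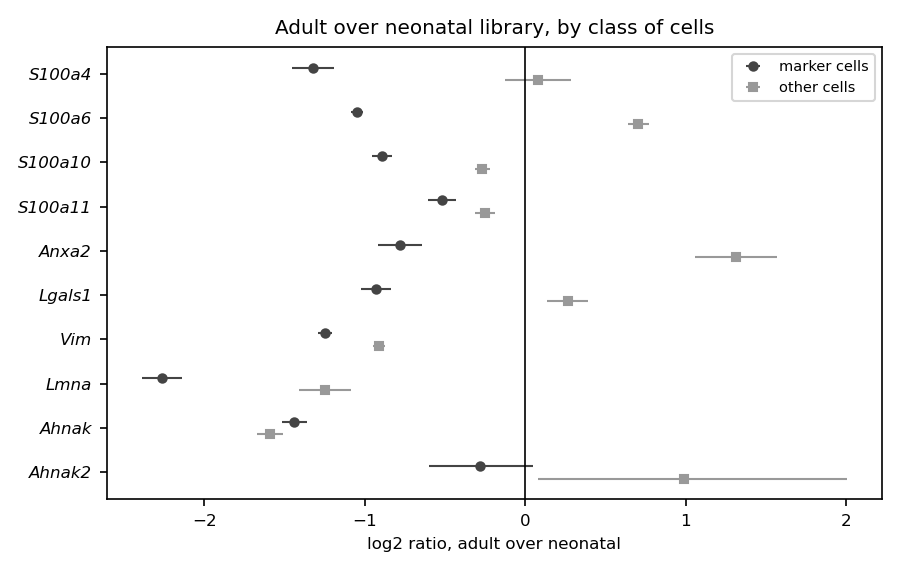
Log2 ratio of the adult over the neonatal library for each of the 10 genes, within marker cells (dark circles) and within other cells (gray squares), with exact 95% intervals; the vertical line marks no difference. Lmna, Ahnak and Vim lie left of the line in both classes, and S100a6, Anxa2 and Lgals1 lie left in marker cells and right in other cells with both intervals clear of it. S100a4 and Ahnak2 also change sides, each with an interval that crosses the line.

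The genes also varied with classes that their choice did not use. In the 42 neonatal cells with UMIs of at least 3 S phase and mitosis genes, the summed level of the 10 genes was 6290 CPM (6150 to 6433), against 3319 CPM in the remaining cells, and in the 96 such adult cells 3141 CPM (3080 to 3203) against 2317 CPM. Marker cells made up 59.5% and 59.4% of these cycling cells. Among other cells alone the values were 3409 against 2244 CPM and 2559 against 1635 CPM. Of the 1905 neonatal and 3094 adult other cells, 1888 and 3055 were not cycling, so the cycling values rest on few cells. The cycling class was set on whole cells, so it depends on depth, and the part of depth was not tested. By depth, the cells in the lowest and the highest quartile by UMIs were at 1694 and 5359 CPM in the neonatal library and at 958 and 3053 CPM for adult cells. Among other cells of the same quartiles they were at 1694 and 3059 CPM and at 958 and 2101 CPM, so depth and level went together outside the marker class as well. S100a6 in other cells of these quartiles was at 25.0 and 530.5 CPM at 2 weeks and at 23.0 and 535 CPM at 8 weeks. The ages were thus close in S100a6 in both quartiles, which were set within each library. S100a10 was at 435 and 491 CPM and at 426 and 391 CPM, so its level hardly followed depth.

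Among other cells, the adult ones with Cr2 but no Fcer2a UMI had a summed level of 2314 CPM (2243 to 2386), against 1636 CPM with both genes and 1382 CPM with Fcer2a alone. S100a6 was at 693, 385 and 150 CPM in these 249, 1169 and 1178 cells, and S100a4 at 57.3, 25.0 and 6.14 CPM. The classes were set on whole cells, so they depend on depth, and the part of depth in this order was not tested. In the neonatal library the same classes were at 2092, 1825 and 2098 CPM, without such an order. Neonatal other cells with Vpreb3, a gene of immature B cells, and neither Cr2 nor Fcer2a had the lowest S100a4 (1.66 CPM) and S100a6 (77.7 CPM) of these classes. In the neonatal library, which pooled the sexes, other cells with a Y-linked UMI and no Xist were at 2478 CPM and those with Xist and no Y-linked UMI at 1833 CPM, with medians of 6022 and 5458 UMIs.

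Macrophages, T cells, endothelial cells and fibroblasts also express several of these genes, so their markers were read in the same cells. The 8 macrophage or monocyte genes summed to 135 CPM in neonatal marker cells and 75.4 CPM in other cells, mostly Lyz2, with a UMI of any of them in 15.1% and 3.25% of cells. In the adult library they summed to 10.0 and 15.3 CPM, and UMIs were in 10.3% and 1.94% of cells. C1qa had no UMI in neonatal other cells and Fcgr1 none in adult marker cells. The 4 neutrophil genes summed to 60.8 and 15.3 CPM in the neonatal classes, in 5 and 10 cells, with Mmp8 at 0, and to 0 in both adult classes. The 5 T cell genes summed to 22.6 and 7.21 CPM at 2 weeks and 23.8 and 8.15 CPM at 8 weeks. A UMI of any T cell gene was in 14.5% of neonatal marker cells and 1.68% of other cells, and in 12.0% and 1.94% of adult ones. These shares are of whole cells, so they depend on depth. The 5 endothelial genes summed to between 111 and 146 CPM, nearly all from Pecam1, which B cells also express, while Kdr was at 0 in neonatal marker cells and in both adult classes. NK cell, fibroblast, platelet and cardiomyocyte lists summed to at most 2.79 CPM in every class and red blood cell genes to at most 4.86 CPM. Without the cells that held a UMI of the 6 macrophage genes, the median log2 ratios of marker over other cells were 2.80 and 1.64. Those 6 genes do not include Lyz2. Without cells with any macrophage, T, NK, endothelial, fibroblast or platelet UMI, which left 37 and 116 marker cells, they were 3.14 and 1.81, and Anxa2 within marker cells turned to 0.26 between the ages. Endothelial genes had a UMI in 72.7% and 72.9% of marker cells and in 54.5% and 47.9% of other cells. That setting therefore also dropped B cells with Pecam1.

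Marker cells also differed from other cells in B cell genes outside the 10. Follicular genes summed to 1125 and 1258 CPM in neonatal and adult marker cells, against 2358 and 2419 CPM in other cells. Plasma cell genes summed to 1207 and 1019 CPM, against 750.3 and 667 CPM. Most of this came from Mzb1, at 692 and 688 CPM against 461 and 464 CPM. Transitional B cell genes summed to 2342 and 2670 CPM, against 3755 and 2721 CPM, so the adult sums were nearly equal. Most of this came from Ly6d, at 1723 and 2101 CPM against 2677 and 2092 CPM. The part of these differences in the levels of the 10 genes was not tested.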

How the data were processed

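The authors counted UMIs per gene and droplet with Cell Ranger (3.0.2 in the file headers) on mm10 and deposited raw UMI counts for all barcodes of 1 droplet library with 3′ chemistry per age. The 3 antibody rows were not used. Cells had at least 2000 UMIs, at most 10% mitochondrial UMIs and a Cd79a UMI. UMIs were summed per library and class and divided by the total (CPM). Intervals are exact at 95% (Poisson for levels, conditional binomial for ratios, Clopper-Pearson for shares) and cover counting error only. With 1 library per age no test was run. Shares of all genes past 2-fold are over genes with at least 50 UMIs in the groups compared. For shares of cells, each cell was thinned to 2000 UMIs. Free RNA was taken from droplets of ranks 45000 to 90000. Doublets were gated out at the sort, which does not cover droplets that took up more than 1 sorted cell. Such droplets were not called here, and their part in the marker cells was not tested.

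The 10 genes and all lists were chosen with earlier results of these data known. Family genes were named by the 3 largest ratios in each direction per comparison (S100a8 and S100a9, at 0 in the adult library, were named without a ratio and the next 3 added), and similar genes by the 10 highest mean r among genes with a UMI in at least 2% of thinned cells of each library. Exceptions are named as such. The scripts were tested on simulated data. Alternatives changed the cell minimum, mitochondrial limit, scaling, depth, class, doubtful cells, free RNA and sex. Sums were made with pandas 2.3.3 and numpy 2.4.6, intervals with scipy 1.17.1 and figures with matplotlib 3.10.9, under Python 3.11.15.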

Additional observations from a re-analysis of the deposited data

Results flagged for a closer look

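For 5 genes the ratio of adult over neonatal had opposite signs in the marker cells and in the other cells, and for 3 of them both intervals lay clear of 0. The share of all genes with such a change of sign was not taken, so nothing is read from these counts. Over all genes, 38.2% had a ratio above 0 in marker cells and 36.0% in other cells. S100a6 was at −1.05 on the log2 scale in marker cells and at 0.71 in other cells. Anxa2 was at −0.78 and 1.31, and Lgals1 at −0.93 and 0.27. S100a4 (−1.33 and 0.08) and Ahnak2 (−0.28 and 0.99) had an interval that included 0 in other cells and in marker cells, respectively. With 1 library per age the difference between the classes was not tested. S100a6 kept both signs under all 18 alternative settings, though in other cells of 8000 to 20000 UMIs it was only at 0.27. Its level in other cells was close between the ages in the lowest and in the highest quartile by UMIs, as given above. Anxa2 in marker cells turned to 0.26 without cells holding any marker of other cell types, Pecam1 included. It turned to 0.03 without the 5% of cells with most UMIs. Lgals1 in other cells turned to −0.02 with thinned cells and to −0.12 with the class set on them as well.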

How the results depend on the processing

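No paired analysis was possible because each age has 1 library and the samples carry no replicate numbers. All values are log2 ratios unless a count is named, and the cause of each change was not tested. Shares of all genes past 2-fold were taken for the main cells and classes only. Nothing is therefore read from the counts of genes past 2-fold under the alternatives. The setting without markers of other cell types also drops cells with Pecam1, which B cells express. Over all cells, the median of adult over neonatal, −0.34, turned to 0.0082 without cells holding any marker of other cell types, 0.14 without the 5% of cells with most UMIs and 0.051 without shared barcodes. Under these settings S100a4 was at 0.61, 1.03 and 0.30, S100a6 at 0.68, 0.74 and 0.31, Lgals1 at 0.11, 0.42 and 0.31, and 2, 3 and 1 of the genes were at least 2-fold higher in the adult library. The same median was −0.22 with the Cell Ranger minimum (S100a6 0.14, Lgals1 0.10), −0.12 as a mean over cells (S100a4 0.060, S100a6 0.32, Lgals1 0.0057), −0.19 with median-of-ratios scaling (S100a6 0.0054), −0.18 thinned, under either class (S100a4 0.022, S100a6 0.35, 1 gene at least 2-fold higher), −0.48 with neonatal male cells only (Anxa2 −0.043), −0.22 without cycling cells (S100a6 0.041), −0.22 in cells of 8000 to 20000 UMIs (S100a4 0.21) and −0.20 without cells with 6 macrophage genes (S100a6 0.043). Within marker cells the median of −0.99 moved to −0.81 (mean over cells), −0.85 (median of ratios), −0.90 (thinned), −1.10 (at least 3 class genes), −0.56 (at least 1), −0.82 (no marker of other types, Anxa2 0.26), −0.47 (without the deepest 5%, S100a4 0.49, Anxa2 0.028), −0.86 (no shared barcodes), −1.13 (male) and −0.58 (8000 to 20000 UMIs, S100a4 0.14). Within other cells the median of −0.08 moved to 0.17 (Cell Ranger minimum), 0.066 (median of ratios), −0.27 and 0.080 (at least 3 or 1 class genes), 0.19 (no marker of other types), 0.072 (without the deepest 5%), 0.068 (no shared barcodes) and −0.30 (male), and Lgals1 was at −0.018 thinned and −0.12 with the class thinned too. Marker over other cells kept its sign for every gene: the neonatal median of 2.75 moved to 3.08 (mean over cells), 3.04 (thinned), 2.58 (class thinned too), 2.59 and 2.59 (at least 3 or 1 class genes), 3.14 (no marker of other types), 2.53 (without the deepest 5%), 2.60 (male) and 1.60 (8000 to 20000 UMIs), and the adult median of 1.65 to 1.36 (Cell Ranger minimum), 2.31 (mean over cells), 2.30 (thinned), 2.16 (class thinned too), 2.13 (at least 1 class gene), 1.81 (no marker of other types), 1.91 (without the deepest 5%), 1.82 (without cycling cells) and 1.35 (8000 to 20000 UMIs). The count of genes at least 2-fold higher in marker cells stayed between 7 and 9 in the neonatal and 7 and 8 in the adult library. Of 900 values of single genes under the alternatives, 29 reversed and 390 moved beyond their interval. Settings on the range of 8000 to 20000 UMIs, the cell with most UMIs and the 6 macrophage genes were chosen after seeing the data. Ahnak2, with 13 UMIs in neonatal other cells, is limited by depth.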

Other observations

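Interferon-responding cells, with UMIs of at least 3 interferon genes, were read over all cells and among other cells alone. Over all cells their summed level of the 10 genes was 5513 CPM (5374 to 5654) in 68 neonatal cells, of which 16 were marker cells, and 2992 CPM (2958 to 3027) in 458 adult cells, of which 170 were, log2 ratios to the remaining cells of 0.70 (0.66 to 0.74) and 0.47 (0.45 to 0.49). Among other cells alone the neonatal direction was the opposite: the level was 1896 CPM in 52 neonatal cells, a log2 ratio of −0.27 (−0.37 to −0.17), and 2055 CPM in 288 adult cells, a log2 ratio of 0.38 (0.34 to 0.41). The interferon class was set on whole cells, so it depends on depth, and the part of depth in these ratios was not tested. Over all cells, those with more lambda than kappa light chain UMIs were at 3463 CPM and those with more kappa at 3551 CPM in the neonatal library. In the adult library they were at 2875 and 2352 CPM. The part of marker cells and of depth in the light chain values was not tested.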
